A study of Homo sapiens with 6 samples.

Results

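The histone genes are the rows of the deposited mRNA table whose symbol begins with HIST1H to HIST4H, H1F, H2AF or H3F, 87 of 19912 rows. Of these, 71 are clustered genes (HIST symbols) and 16 are variant genes (H1F, H2AF and H3F symbols). The 6 RNA libraries come from Panc-1, an established human cell line from a pancreatic ductal tumour, labelled as gemcitabine resistant. The libraries carry the treatment shSRSF3 in 3 cases (knockdown) and ctrl in 3 cases (control), and all 6 share the resistant background. The labels name no clone, culture or batch, and what separates the replicates is unknown, so a p-value reflects library-to-library spread that may be purely technical. Values are FPKM, fragment numbers scaled by gene length in kilobases and by the fragment total of each library, and each value below is in that unit unless fragments are named.

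Histones H2A, H2B, H3 and H4 form the core of the nucleosome, and linker histone H1 binds where the DNA enters and leaves it. Clustered histone genes are switched on in S phase to package newly copied DNA. Most of their mRNAs have no introns and end in a stem-loop in place of a poly(A) tail. Variant genes mostly lie outside the clusters, mostly give polyadenylated mRNA, and many supply histones outside S phase as well, such as H3.3 and H2A.Z.

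The promoters of 5 genes are shown so that the classes and families can be compared. RefSeq windows of the 250 bases before the gene start (GRCh38.p14) were matched for 68 of the 87 genes, 57 clustered and 11 variant. The sources used here do not name the build of the deposited tables, so these windows describe the reference genes only. H2AFV (H2A.Z.2) is at chr7:44848088-44848337, H2AFX (H2A.X) at chr11:119095466-119095715, H3F3B (H3.3) at chr17:75779780-75780029, HIST1H1C (a linker histone) at chr6:26056471-26056720 and HIST1H2BJ (an H2B) at chr6:27132796-27133045, all on the minus strand and printed 5′ to 3′ in the direction of the gene. Capitals mark matches on either strand. The motifs searched were the TATA box (TATAAA), then the CCAAT box, the octamer (spelled ATTTGCAT), the H1 box of linker histone genes (spelled AAACACA) and the GC box bound by Sp1 (spelled GGGCGG).
H2AFV: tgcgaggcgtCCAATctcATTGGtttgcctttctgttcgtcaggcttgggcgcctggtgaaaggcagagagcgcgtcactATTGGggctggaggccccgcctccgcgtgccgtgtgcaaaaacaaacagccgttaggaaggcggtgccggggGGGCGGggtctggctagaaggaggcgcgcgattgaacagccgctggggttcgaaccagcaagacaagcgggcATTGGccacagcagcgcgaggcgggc
H2AFX: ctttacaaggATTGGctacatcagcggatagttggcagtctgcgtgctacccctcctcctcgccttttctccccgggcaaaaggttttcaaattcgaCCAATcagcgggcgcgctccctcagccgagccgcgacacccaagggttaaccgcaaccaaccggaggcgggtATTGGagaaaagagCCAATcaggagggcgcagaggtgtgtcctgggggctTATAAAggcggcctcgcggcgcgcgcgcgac
H3F3B: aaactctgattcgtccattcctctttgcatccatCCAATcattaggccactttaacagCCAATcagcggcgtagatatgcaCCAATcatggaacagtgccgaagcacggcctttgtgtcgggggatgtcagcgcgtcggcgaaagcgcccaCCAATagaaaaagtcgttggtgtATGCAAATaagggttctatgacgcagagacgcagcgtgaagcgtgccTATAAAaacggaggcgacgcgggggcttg
HIST1H1C: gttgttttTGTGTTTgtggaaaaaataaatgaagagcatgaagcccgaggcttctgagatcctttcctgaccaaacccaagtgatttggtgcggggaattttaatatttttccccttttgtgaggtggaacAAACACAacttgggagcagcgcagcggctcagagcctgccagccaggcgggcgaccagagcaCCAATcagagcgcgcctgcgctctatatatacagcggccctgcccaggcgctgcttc
HIST1H2BJ: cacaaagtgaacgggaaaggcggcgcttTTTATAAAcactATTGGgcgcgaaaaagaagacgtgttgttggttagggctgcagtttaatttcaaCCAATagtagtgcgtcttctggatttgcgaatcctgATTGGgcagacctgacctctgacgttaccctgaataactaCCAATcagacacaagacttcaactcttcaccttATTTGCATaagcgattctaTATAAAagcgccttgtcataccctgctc

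A TATA box was found in 38 of 57 clustered promoters (66.7%) and in 4 of 11 variant promoters (36.4%), against 10.7% of all 35116 promoters in the reference table. Among genes with a mean of at least 0.5 FPKM the classes were alike, with a TATA box in 5 of 7 clustered (71.4%) and 4 of 6 variant promoters (66.7%). H2AFX, H3F3B and HIST1H2BJ each carry one that begins 31, 29 and 28 bases before the start, and H2AFV carries none. The CCAAT box was in all 44 windows of the clustered H1, H2A, H2B and H3 families but in 3 of 13 clustered H4 windows. By class it was in 47 of 57 clustered (82.5%) and 9 of 11 variant windows (81.8%), against 32% of all promoters. The octamer, the site known for Oct-1 at H2B genes, was in 8 of 11 clustered H2B and 11 of 16 clustered H2A windows and in 0 of 30 clustered H1, H3 and H4 windows, against 1.63% of all promoters. In HIST1H2BJ 2 TATA matches on opposite strands overlap each other; no other matches in the printed windows overlap. The windows of H2A and H2B neighbours can be the same DNA, since 8 H2A and H2B pairs run in opposite directions and share between 193 and 247 of the 250 bases; HIST1H2BJ shares 247 with HIST1H2AG. The H1 box was found in 6 of 6 clustered H1 windows and in 0 of 51 windows of the other clustered families, against 4.82% of all promoters. Median GC content was 44.4% in clustered and 64.0% in variant windows, against 58.0% of all. These matches describe letters in the windows and not factor binding.

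SRSF3, the targeted splicing factor, had values of 36.9, 37.1 and 38.6 FPKM in libraries 1 to 3 labelled knockdown, against 37.0, 39.6 and 39.2 FPKM in control libraries. Its log2 change was -0.04 (SE 0.05, 95% interval -0.15 to 0.07, limma adjusted p = 0.612), and permuting the 6 labels exactly gave a two-sided p = 0.3 (exact test, minimum 0.1 for 3 against 3). No fall was detected, so "knockdown" below names the label only. Fragment totals recovered from the FPKM steps ran from 24558238 to 27351642 per library, and all 56 histone genes above 0 in at least 3 libraries fell on whole fragments. For the 9 genes above 0 in fewer libraries a length that gives whole fragments can nearly always be found, so their fragment numbers are the smallest that the values allow. Summed FPKM over the mRNA table was 336887, 308101 and 287148 in knockdown libraries 1 to 3, against 275359 to 285701 in controls. Knockdown library 1 held the highest or lowest of the 6 values for 75.0% of the 20 tested histone genes and for 47.2% of all 10823 tested genes. Epithelial markers KRT8, KRT18, KRT19, EPCAM and CDH1 averaged between 78.9 and 1687 FPKM over all libraries, and PDX1 10.3 FPKM. KRT7, a ductal keratin, averaged 0.166 FPKM and VIM, which PANC-1 is known to express, 0.0188 FPKM. A value near 0 in this table need not mean absent RNA, since the widely expressed genes CPSF1 and DAXX averaged 0.0010 and 0.0994 FPKM. Whether the low VIM and KRT7 values come from the cells or from the table was not tested, and neither was the identity of the cells. No marker listed for acinar, fibroblast, leukocyte or endothelial cells averaged above 0.307 FPKM.

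**Figure D1:**
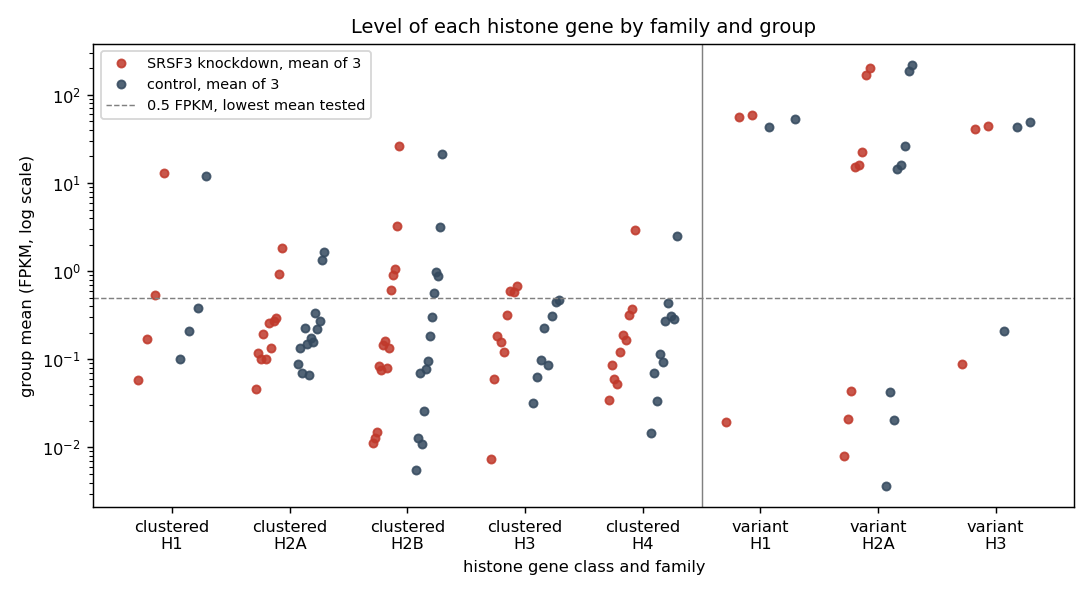
Group means of each histone gene (FPKM, log scale) by class and family, with libraries labelled SRSF3 knockdown left of controls; genes at 0 in a group are not drawn. Clustered genes lie mostly below 0.5 FPKM with HIST1H2BK and HIST1H1C above 10 FPKM, and 9 of 16 variant genes lie above 14 FPKM.

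Variant genes made up nearly all of the histone mRNA measured. Their summed level was 598, 643 and 625 FPKM in knockdown libraries 1 to 3, against 661, 658 and 633 FPKM in control libraries 1 to 3. Clustered genes together had 66.3, 54.2 and 52.3 FPKM in knockdown libraries, against 54.0, 49.6 and 49.6 FPKM in control libraries. The clustered share of summed histone FPKM was therefore 9.98%, 7.77% and 7.72% in knockdown libraries and 7.55%, 7.01% and 7.27% in controls. The groups do not overlap in this share, and knockdown library 1 stands above the rest. The margin is small, with 7.72% in knockdown library 3 against 7.55% in control library 1. Among single tested genes, the groups did not overlap in 37.9%. The clustered sum itself overlaps between groups, since knockdown library 3 at 52.3 FPKM lies below control library 1 at 54.0 FPKM. The separation in share therefore depends on the variant sum as well. Sums over members are descriptions and carry no test.

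Of the 71 clustered genes, 20 were listed at 0 in every library. A listed 0 need not mean absent RNA, since genes that every cell uses were also at or near 0. CPSF1, a cleavage factor subunit, had 1 fragment in knockdown library 3 and was at 0 elsewhere. IPO4, a histone importin, had 1 fragment in each of 2 libraries and was at 0 in the other 4. A further 13 never had more than 3 fragments, and 52 never reached 10. Only 3 reached 100 fragments in any library. These were HIST1H1C, HIST1H2BK and HIST1H4I. HIST1H2BK and HIST1H1C alone carried 64.4% to 68.8% of the clustered FPKM in the 6 libraries. Among variant genes, the 9 with a mean of at least 0.5 FPKM had at least 666 fragments in each library, and H1FOO and H2AFB2 were at 0 throughout. H1FOO is the oocyte linker histone. The label protocols describe both a selection of polyadenylated RNA with poly-T beads and a preparation with rRNA depletion, and the sources used here do not say which gave the mRNA table.

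Of 32 listed RNAs without a standard poly(A) tail, 5 have a row in the lncRNA table, of which 3 were at or near 0 and 2 were above the filter. RMRP, the RNA of RNase MRP, was at 0 in all 6 libraries, SCARNA9 had 2 fragments in knockdown library 3 and 0 elsewhere, and the telomerase RNA TERC had 1 and 4 fragments in control libraries 1 and 3 and 0 elsewhere. The nuclear RNAs MALAT1 and NEAT1, whose ends are partly protected without a tail, averaged 2.83 ± 0.546 and 1.88 ± 0.0213 FPKM in knockdown libraries, against 4.10 ± 0.300 and 2.53 ± 0.0679 FPKM in controls (SD, n = 3 each). Neither passed in limma (adjusted p = 0.357 for MALAT1 and 0.399 for NEAT1), where 0% of 3092 tested lncRNA rows passed and 284 had an unadjusted p under 0.05. Preparation and histone level were not tested against each other.

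Of the 87 histone genes, 20 had a mean of at least 0.5 FPKM and were tested with limma on log2(FPKM + 1), a scale that understates changes of low genes. Among 9 tested variant genes 1 was higher and 1 lower in libraries labelled knockdown, and among 11 tested clustered genes 1 was higher and 0 lower. Of all 10823 tested genes, 16.8% passed (Benjamini-Hochberg adjusted p under 0.05), 10.9% higher and 5.91% lower, so 3 of 20 is near that background. At an unadjusted limma p under 0.05 there were 6 of 20 histone genes, 4 variant and 2 clustered, against 3575 of all 10823 tested genes. The median log2 change was -0.07 over the variant and 0.08 over the clustered genes tested, against 0.02 over all tested genes. With every library rescaled to the same summed FPKM, the median of all tested genes shifted by -0.11 and the share of calls that were higher was 14.6% in place of 64.8% (53.6% with median scaling and 50.3% with quantile normalization); the variant and clustered medians were then -0.21 and -0.0014.

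**Figure D2:**
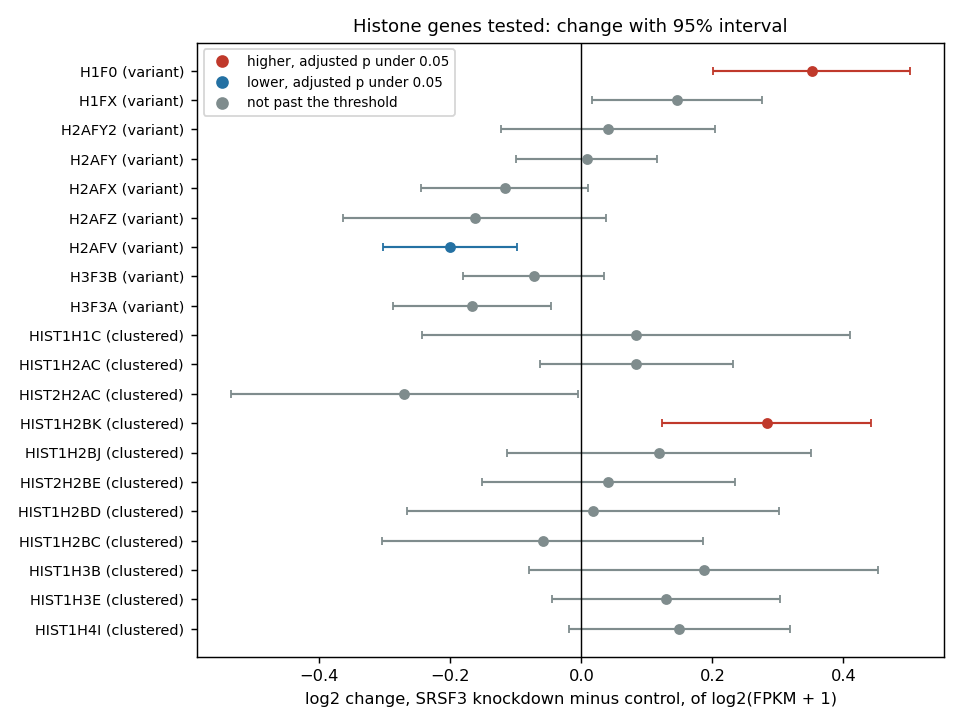
Log2 change of each of the 20 tested histone genes, libraries labelled SRSF3 knockdown minus control, on log2(FPKM + 1), with 95% limma intervals. H1F0 and HIST1H2BK lie to the right of 0 and H2AFV to the left past the threshold, and the intervals of 14 of the other 17 genes include 0.

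H1F0 had the lowest adjusted p of the histone genes. It encodes H1.0, the linker histone known to accumulate in cells that stop dividing or differentiate. It was measured at 61.9, 55.3 and 51.2 FPKM in knockdown libraries 1 to 3, against 42.1, 45.6 and 43.4 FPKM in control libraries 1 to 3. All 3 knockdown values lie above all control values, with library 1 the highest. The mean was 56.1 ± 5.38 FPKM in knockdown and 43.7 ± 1.77 FPKM in control libraries (SD, n = 3 each), a log2 change of 0.35 (SE 0.07, 95% interval 0.20 to 0.50, limma adjusted p = 0.00851). H1F0 passed under each of the 15 alternatives tried, with log2 changes between 0.22 and 0.41 and adjusted p from 0.00272 to 0.0419.

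H1FX encodes H1.10, another linker histone made throughout the cell cycle. It stood at 58.1, 63.3 and 56.41 FPKM in knockdown libraries, against 56.36, 52.5 and 51.4 FPKM in control libraries. The groups do not overlap, by a margin of less than 0.1 FPKM, as they did not in 37.9% of all tested genes. Its log2 change was 0.15 (SE 0.06, limma adjusted p = 0.111), and it passed only without knockdown library 3 (adjusted p = 0.0477). The ratio of H1F0 to H1FX was 1.06, 0.875 and 0.907 in knockdown libraries and 0.746, 0.867 and 0.843 in controls. Together both genes summed to 115 ± 6.79 FPKM in knockdown and 97.1 ± 2.02 FPKM in control libraries. H1FX-AS1, the antisense partner of H1FX, had 2, 8 and 2 fragments in knockdown and 0, 10 and 5 in control libraries of the lncRNA table, and without known strand use its reads cannot be told apart from those of H1FX. The testis gene H1FNT had 1 fragment in each of knockdown libraries 2 and 3 and 0 elsewhere.

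Among variant H2A genes, H2AFV was lower. It encodes H2A.Z.2, one form of H2A.Z, the variant placed at gene starts. It stood at 22.1, 22.7 and 23.0 FPKM in knockdown libraries 1 to 3, against 26.1, 26.6 and 25.6 FPKM in control libraries. The groups are apart by more than the range within either. The log2 change was -0.20 (SE 0.05, 95% interval -0.30 to -0.10, limma adjusted p = 0.0175). The call was lost without knockdown library 2 (adjusted p = 0.0540) and without control library 1, 2 or 3 (0.0576, 0.0985 and 0.0544), while the log2 change stayed between -0.22 and -0.18 in all fits that left out 1 library. With equal summed FPKM it was -0.33.

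H2AFZ, the paralogue that encodes H2A.Z.1, was more abundant. It stood at 140.2, 180.2 and 182.5 FPKM in knockdown libraries, against 187.8, 188.5 and 183.3 FPKM in control libraries. The groups do not overlap, but knockdown libraries 2 and 3 lie close to the controls and library 1 far below. The SD was 23.8 FPKM in knockdown and 2.85 FPKM in control libraries. The log2 change was -0.16 (SE 0.09, limma adjusted p = 0.234), and without knockdown library 1 it was -0.04. The ratio of H2AFZ to H2AFV was 6.35 in knockdown library 1 and 7.96 and 7.92 in the other knockdown libraries, against 7.08 to 7.18 in controls.

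H2AFX, whose product H2A.X is phosphorylated around DNA breaks, was the most abundant histone gene by FPKM. It stood at 203, 202 and 196 FPKM in knockdown libraries, against 229, 217 and 206 FPKM in control libraries. The groups do not overlap, and the log2 change was -0.12 (SE 0.06, 95% interval -0.24 to 0.01, limma adjusted p = 0.181). It passed with quantile normalization (adjusted p = 0.00736) and with equal summed FPKM (0.0258). H2AFX and H2AFZ together made up 57.3% to 60.6% of variant FPKM in knockdown libraries and 61.5% to 63.1% in controls.

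The macroH2A genes, whose products carry a large extra domain, showed no detected difference. H2AFY (macroH2A1) stood at 16.7, 16.1 and 15.6 FPKM in knockdown libraries and at 16.2, 16.1 and 15.8 FPKM in control libraries (log2 change 0.0083, 95% interval -0.10 to 0.12). H2AFY2 (macroH2A2) averaged 15.0 ± 1.62 FPKM in knockdown and 14.5 ± 0.740 FPKM in control libraries (log2 change 0.04, 95% interval -0.12 to 0.20, limma adjusted p = 0.733). The order of levels depends on gene length here. H2AFY had 7608, 7112 and 7540 fragments in knockdown libraries, close to the 8378, 8131 and 8645 of H2AFX, over a recovered length of 17730 bp against 1614 bp. H2AFJ, H2AFB1 and H2AFB3 never had more than 2 fragments, and the H2AFB genes are near-identical copies among which reads may have been split.

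Both genes of H3.3, the replacement H3 that is loaded outside replication, were lower on average in knockdown libraries without passing. H3F3A stood at 41.8, 44.2 and 46.2 FPKM in knockdown libraries 1 to 3, against 47.7, 51.6 and 49.4 FPKM in control libraries 1 to 3. The groups do not overlap, with knockdown library 3 nearest to the controls. The log2 change was -0.17 (SE 0.05, 95% interval -0.29 to -0.05, limma adjusted p = 0.0595). It passed without knockdown library 3 (0.0227), with median scaling (0.0363), with quantile normalization (0.0281), among genes averaging 5 FPKM or more (0.0430) and with the replicate number as a block (0.0354).

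H3F3B, the other H3.3 gene, stood at 39.4, 42.0 and 40.4 FPKM in knockdown libraries, against 41.4, 43.9 and 43.1 FPKM in control libraries. These ranges overlap, and the log2 change was -0.07 (SE 0.05, limma adjusted p = 0.323). It passed only with quantile normalization (0.0465). Both H3.3 genes together summed to 84.7 ± 3.03 FPKM in knockdown and 92.3 ± 3.18 FPKM in control libraries. H3F3C, a gene derived from H3F3B, had 3, 4 and 0 fragments in knockdown and 3, 9 and 5 in control libraries.

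**Figure D3:**
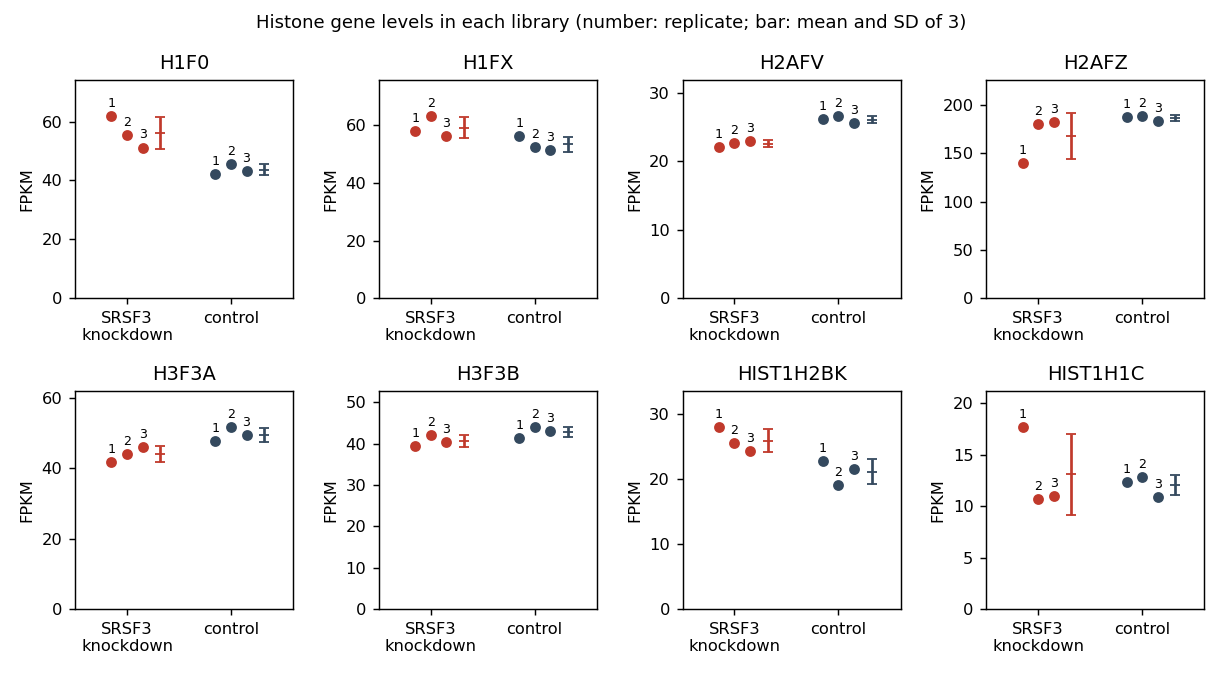
FPKM of 8 histone genes in each library, libraries labelled SRSF3 knockdown left of controls, with replicate numbers and the mean and SD of 3. Knockdown library 1 is the highest for H1F0 and HIST1H1C and the lowest for H2AFZ at 140.2 FPKM, and H2AFV shows 2 separate groups.

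HIST1H2BK was the 1 clustered gene past the threshold. It encodes an H2B and is among the clustered genes for which polyadenylated transcripts are described. It stood at 27.97, 25.5 and 24.4 FPKM in knockdown libraries, against 22.9, 19.1 and 21.6 FPKM in control libraries. The underlying fragments were 273, 242 and 254 in knockdown and 214, 186 and 225 in control libraries, over a recovered length of 381 bp. Every knockdown value exceeds every control value. Its log2 change was 0.28 (SE 0.07, 95% interval 0.12 to 0.44, limma adjusted p = 0.0248). The call was lost without knockdown library 1 or 2 (adjusted p = 0.0533 and 0.0646), without control library 2 or 3 (0.107 and 0.0668), with no filter (0.0829), with quantile normalization (0.0716), with limma voom on fragments (0.0895) and with equal summed FPKM (0.179).

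HIST1H2BK and HIST1H1C belong to the short genes, and short genes were higher in knockdown library 1. Over the 142 tested genes under 1000 bp, the median log2 difference from the control mean was 0.14 in knockdown library 1, 0.06 in library 2 and 0.0029 in library 3, against 0.02, 0.02 and 0.01 over 10657 longer genes. Its part in the HIST1H2BK result was not tested beyond the fit without library 1.

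HIST1H1C encodes H1.2, the most abundant clustered linker histone here. It stood at 17.6, 10.7 and 11.01 FPKM in knockdown libraries, against 12.4, 12.8 and 10.9 FPKM in control libraries. Knockdown library 1 had 290 fragments, with an exact 95% Poisson interval of 258 to 325, while the other 5 libraries had between 171 and 210. Such intervals cover counting error only, since reads without molecular identifiers are not independent molecules. The log2 change was 0.08 (SE 0.15, limma adjusted p = 0.727) and turned to -0.13 without knockdown library 1.

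The other clustered genes with tested levels lay between 0.508 and 3.201 FPKM on average. HIST1H4I, an H4 gene, stood at 3.05, 2.85 and 2.77 FPKM in knockdown libraries, against 2.83, 2.18 and 2.54 FPKM in control libraries (log2 change 0.15, limma adjusted p = 0.196). HIST1H2BD, an H2B gene, varied as much within groups as between them, at 3.99, 3.04 and 2.65 FPKM in knockdown and 3.97, 2.74 and 2.81 FPKM in control libraries. HIST1H2AC, an H2A gene, averaged 1.81 ± 0.149 FPKM in knockdown and 1.65 ± 0.0938 FPKM in control libraries (log2 change 0.08, limma adjusted p = 0.406).

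The H2A gene HIST2H2AC was the tested clustered gene with the lowest log2 change, at 0.801, 1.13 and 0.845 FPKM in knockdown libraries, against 0.940, 1.30 and 1.78 FPKM in control libraries. It rests on 8, 11 and 9 fragments in knockdown and 9, 13 and 19 in control libraries, the groups overlap, and its log2 change was -0.27 (SE 0.12, limma adjusted p = 0.145). It passed only without control library 1 (adjusted p = 0.0478). HIST2H2BE is the H2B neighbour whose promoter window shares 235 of 250 bases with that of HIST2H2AC. It averaged 0.604 ± 0.0646 FPKM in knockdown and 0.565 ± 0.172 FPKM in control libraries. HIST1H2BJ averaged 1.05 ± 0.320 FPKM in knockdown and 0.874 ± 0.123 FPKM in controls, and HIST1H2BC averaged 0.911 ± 0.325 FPKM in knockdown and 0.972 ± 0.0874 FPKM in controls. Neither passed (limma adjusted p = 0.462 and 0.743).

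Clustered H3 genes were few in fragments. HIST1H3B, an H3.1 gene, had 4, 8 and 10 fragments in knockdown libraries and 4, 7 and 4 in controls, and it had the largest spread within a group of the tested clustered genes, a coefficient of variation of 39.3% in knockdown libraries. HIST1H3E had 47, 32 and 41 fragments in knockdown libraries and 29, 37 and 25 in controls (log2 change 0.13, limma adjusted p = 0.280). Summed over all 15 clustered H3 genes there were 90, 65 and 82 fragments in knockdown libraries and 56, 53 and 45 in controls, or 2.71 ± 0.438 FPKM and 1.73 ± 0.439 FPKM. These H3 sums do not overlap in fragments or FPKM between groups, but they include genes under the filter and carry no test. The FPKM margin is small, with 2.21 FPKM in knockdown library 2 against 2.18 FPKM in control library 1. Single tested genes did not overlap between groups in 37.9% of cases.

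Clustered H2A genes summed to 4.38, 4.32 and 4.06 FPKM in knockdown and 4.80, 4.67 and 5.18 FPKM in control libraries. The means were 4.25 ± 0.173 and 4.88 ± 0.267 FPKM. These H2A sums do not overlap in FPKM, with knockdown lower, as the groups did not in 37.9% of single tested genes. In fragments the H2A sums overlap. The fragments were 116, 115 and 121 in knockdown and 109, 107 and 133 in control libraries. Clustered H2B genes summed to 32.5 ± 2.93 FPKM in knockdown and 27.6 ± 2.20 FPKM in control libraries, most of it HIST1H2BK. Clustered H4 genes summed to 4.29 ± 0.521 FPKM in knockdown and 4.15 ± 0.245 FPKM in control libraries. The 60 clustered genes under the filter together had 183, 156 and 149 fragments in knockdown and 127, 160 and 138 in control libraries, and summed to 5.84 ± 1.45 FPKM in knockdown and 5.82 ± 0.352 FPKM in control libraries. Without HIST1H1C and HIST1H2BK, the clustered sum was 18.5 ± 1.96 FPKM in knockdown and 17.8 ± 0.853 FPKM in control libraries. Near-identical copies such as HIST2H4A and HIST2H4B, HIST2H2AA3 and HIST2H2AA4, and HIST2H3A, HIST2H3C and HIST2H3D had at most 5 fragments a library each, and their single values are uncertain because reads of copies may have been split or left out.

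Gene lengths recovered from the FPKM steps describe the gene models. Of 45 clustered genes above 0 in at least 3 libraries, 26 had a length that is a multiple of 3 (57.8%), against 4 of 11 variant genes (36.4%) and 33.7% of all such mRNA rows. HIST1H2BK at 381 bp, HIST1H1C at 642 bp and HIST1H3B at 411 bp are among them. HIST1H2BD at 871 bp and HIST1H2AC at 1668 bp have longer models. The median was 754 bp for clustered and 2303 bp for variant genes. The length is the smallest that turns all values of a row into whole fragments, so for rows of few fragments a multiple of it would serve equally.

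CENPA, the centromeric H3 variant, lies outside the symbols chosen but belongs to the same family. It stood at 8.46, 7.17 and 6.91 FPKM in knockdown libraries, against 10.2, 9.25 and 9.62 FPKM in control libraries. All knockdown values lie below the controls, and CENPA fell by 0.33 on the log2 scale (SE 0.07, limma adjusted p = 0.0140). The call was lost without knockdown library 2 (0.0570), control library 1 (0.0550) or control library 3 (0.0502) and with no filter (0.0564). Its chaperone HJURP fell to 19.2 ± 0.863 FPKM in knockdown libraries, against 26.1 ± 1.39 FPKM in controls (log2 change -0.42, limma adjusted p = 0.00148). OIP5, a subunit of the complex that primes centromeres for CENPA, fell by 0.35 on the log2 scale (limma adjusted p = 0.00264).

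Of 36 tested genes of histone chaperones and deposition, 3 were higher and 5 lower (8.33% and 13.9%, against 10.9% and 5.91% of all tested genes), with a median log2 change of -0.06. Beside HJURP and OIP5, DNAJC9, a chaperone of H3 and H4, fell by 0.31 (log2, limma adjusted p = 0.00865), a call lost without control library 2 (0.0519). The helicase genes RUVBL2 and RUVBL1, shared by the complexes that exchange H2A.Z, rose to 75.1 ± 4.82 and 29.4 ± 1.59 FPKM in knockdown libraries, against 57.5 ± 2.62 and 23.3 ± 0.302 FPKM in controls (limma adjusted p = 0.00347 and 0.00369). ZNHIT1, YEATS4 and UBN2, the remaining calls, changed by 0.28, -0.19 and -0.23 (log2). All 3 lost their calls without knockdown library 2 (adjusted p = 0.0663, 0.135 and 0.113), control library 1 (0.0638, 0.0956 and 0.0634), control library 2 (0.0953, 0.0999 and 0.170) or control library 3 (0.102, 0.171 and 0.135). UBN2 also lost its call without knockdown library 1 (0.109) and YEATS4 without knockdown library 3 (0.0572). With no filter all 3 lost their calls (0.0944, 0.0773 and 0.0940). With equal summed FPKM, RUVBL1, ZNHIT1 and UBN2 lost theirs (0.0563, 0.123 and 0.0570), with quantile normalization ZNHIT1 and UBN2 (0.0591 and 0.0643), and with voom YEATS4 (0.0996).

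For the machinery that cuts and handles stem-loop histone mRNA, 20 of 23 listed genes were tested, with 4 higher and 1 lower (20% and 5%, against 10.9% and 5.91% of all tested genes). SNRPE, an Sm protein of the U7 and spliceosomal particles, fell to 23.8 ± 0.517 FPKM in knockdown libraries, against 28.8 ± 0.960 FPKM in controls (log2 change -0.27, limma adjusted p = 0.00616). UPF1, a helicase needed for histone mRNA decay, and LSM10, a subunit of the U7 particle, each rose by 0.27 (log2, limma adjusted p = 0.0109 and 0.0163). UPF1 lost its call without control library 3 (0.0576), and LSM10 without knockdown library 2 (0.0589), control library 2 (0.0729) or control library 3 (0.0707). SYMPK, a scaffold of the cleavage complex, and SSB, an RNA-binding protein, each rose by 0.23 (log2). SYMPK lost its call without knockdown library 2 (0.0870), control library 2 (0.0866) or control library 3 (0.106), and SSB without knockdown library 1 (0.0512) or control library 1, 2 or 3 (0.0949, 0.113 and 0.0585). With no filter LSM10, SYMPK and SSB lost their calls (0.0537, 0.0572 and 0.0775), as did UPF1, LSM10, SYMPK and SSB with equal summed FPKM (0.182, 0.114, 0.299 and 0.462) and SSB with median scaling (0.0507) or quantile normalization (0.104). SLBP, the stem-loop binding protein, was named for its role after its values were seen. It stood at 71.3 ± 3.96 FPKM in knockdown and 73.8 ± 1.36 FPKM in control libraries (log2 change -0.05, 95% interval -0.17 to 0.07, limma adjusted p = 0.548).

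Of 13 genes of histone gene transcription, 2 were higher and 2 lower (15.4% each, against 10.9% and 5.91% of all tested genes). CCNE1, the cyclin E gene that drives entry into S phase, rose to 22.0 ± 1.21 FPKM in knockdown libraries, against 16.6 ± 0.670 FPKM in controls (log2 change 0.38, limma adjusted p = 0.00232). E2F1, a factor of the same transition, was higher by 0.23 (log2, limma adjusted p = 0.0236) and missed the threshold without knockdown library 2 (0.0888) or control libraries 2 or 3 (0.125 and 0.0847). POU2F1, the Oct-1 gene, and NFYB, a subunit of the CCAAT-binding factor, fell by 0.25 and 0.22 (log2). POU2F1 lost its call without knockdown libraries 1 or 2 (0.0757 and 0.0786) or control libraries 1, 2 or 3 (0.0588, 0.0881 and 0.142), and NFYB without knockdown library 2 (0.0673) or control libraries 1, 2 or 3 (0.0642, 0.0912 and 0.0881). With no filter E2F1 and POU2F1 lost their calls (0.0602 and 0.0924), as they did with equal summed FPKM (0.427 and 0.0561), and E2F1 with quantile normalization (0.0945). NFYA, another subunit of the CCAAT-binding factor, averaged 12.8 ± 0.450 FPKM in knockdown and 11.4 ± 0.183 FPKM in control libraries (log2 change 0.16, limma adjusted p = 0.0571) and passed only among genes averaging 5 FPKM or more (0.0446).

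Clustered histone genes are used in S phase. Of 45 listed replication genes, 0 were higher in limma and 7 lower (15.6%, against 5.91% of all tested genes). The median log2 change was -0.04, with 19 genes above 0 and 26 below. Against 3575 of all 10823 tested genes, 14 of the 45 had an unadjusted limma p under 0.05, in both directions. POLD2, MCM2, TIPIN and RFC2 among them were higher (log2 changes 0.15, 0.15, 0.16 and 0.13), and the rest were lower. CLSPN, the checkpoint adaptor claspin, fell to 15.5 ± 0.466 FPKM in knockdown libraries, against 18.9 ± 0.188 FPKM in controls (limma adjusted p = 0.00603). RPA3, of the single-strand binding complex, fell by 0.30 and CDC6, which loads the replicative helicase, by 0.25 (log2, limma adjusted p = 0.00753 and 0.0115). CDC6 lost its call without control library 2 (0.0646) or control library 3 (0.0559). GINS1, WDHD1, POLE2 and RFC1 fell by 0.24 each (log2), and all 4 lost their calls without knockdown library 2 (0.0529, 0.0914, 0.0855 and 0.149), control library 2 (0.112, 0.0766, 0.121 and 0.112) or control library 3 (0.0952, 0.121, 0.164 and 0.177). Without control library 1, GINS1, WDHD1 and RFC1 lost theirs (0.0502, 0.0764 and 0.0602), and without knockdown library 1, WDHD1, POLE2 and RFC1 did (0.0672, 0.0757 and 0.0600). With no filter all 4 lost their calls (0.0698, 0.0792, 0.0953 and 0.118), WDHD1 also with equal summed FPKM (0.0522), and POLE2 with quantile normalization (0.0539) or voom (0.0672). For the 7 lower genes, bulk RNA cannot tell fewer cells in S phase from less RNA per cell, and neither was tested.

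**Figure D4:**
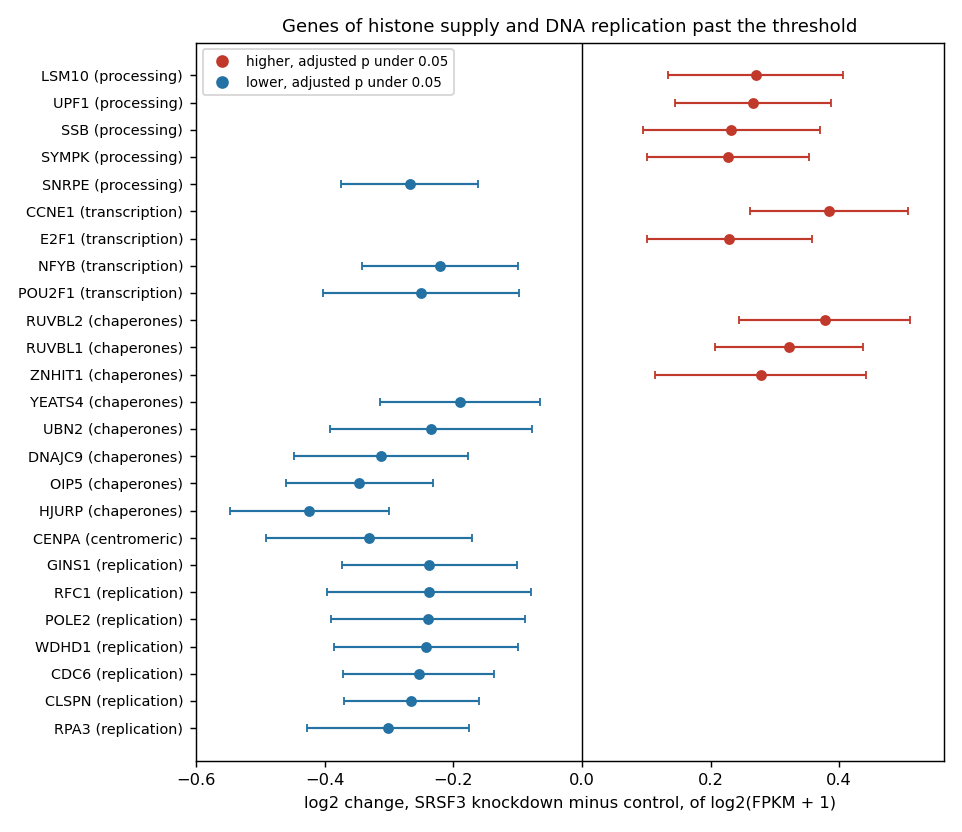
Log2 change with 95% limma interval, libraries labelled SRSF3 knockdown minus control, on log2(FPKM + 1), of the 25 genes past the threshold among histone mRNA processing, histone gene transcription, chaperone, centromeric and replication genes. All 7 replication genes drawn lie left of 0, from RPA3 at -0.30 to GINS1 at -0.24, while the other lists hold genes on both sides or a single gene.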

How the data were processed

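For 6 libraries the authors deposited FPKM per gene symbol, 19912 mRNA and 14145 lncRNA rows. The submitters' processing notes list StringTie, edgeR, HISAT2 and Cuffdiff without role or version. The sources used here do not give build, annotation or strand use. Whole fragments and gene lengths were recovered from the FPKM steps (tolerance 1e-05 fragments plus 3e-08 of the number); 14776 of 14803 mRNA rows above 0 in at least 3 libraries were placed, and the 27 others include no gene named here. The mRNA rows averaging 0.5 FPKM or more were tested on log2(FPKM + 1), and lncRNA rows with at least 0.1 FPKM on log2(FPKM + 0.1), with limma 3.58.1 in R 4.3.3 (trend, two-sided, Benjamini-Hochberg, threshold 0.05). The code was tested on simulated data. Python 3.11.15, numpy 2.4.6, pandas 2.3.3, scipy 1.17.1 and matplotlib 3.10.9 were used. Alternatives were another pseudocount, no filter or a stricter one, median scaling, quantile normalization, robust empirical Bayes, each library left out, a replicate block, limma voom and, chosen after seeing the data, equal summed FPKM.

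Named genes were SRSF3, members past the threshold, the 10 highest clustered genes, variants of at least 0.5 FPKM, members of smallest p or largest spread, and list genes of smallest p. Members and lists were chosen with earlier results of these data known. The 5 promoters shown were chosen from those in the reference table after values were seen. Current symbols were matched for 82 of 87 members.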

Additional observations from a re-analysis of the deposited data

How the results depend on the processing

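Of all tested genes 1819 passed, 647 to 2742 when 1 library was left out, 960 with no filter and 1025 with equal summed FPKM. The clustered count of 1 was 0 to 2 with 1 library left out and 0 with no filter, quantile normalization, voom or equal summed FPKM. The variant count of 2 was 1 to 4 with 1 library left out and 5 with quantile normalization. Whether replicate numbers pair the libraries cannot be decided from 3 libraries per group, and the main fit used no pairing. Deviations of same-numbered libraries correlated at 0.0776, 0.0385 and 0.279, not all above 0.1. Knockdown libraries 1 and 3 correlated best with the control of their own number, and knockdown library 2 with control library 1 (0.153). A replicate block gave 2323 genes, with 1 clustered and 3 variant histone genes, H3F3A added. H1F0 passed in all 16 fits.

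Small changes that did not pass also turned sign (log2 values). With equal summed FPKM, HIST1H1C was at -0.045, HIST1H2BD at -0.089, HIST1H2AC at -0.0014, HIST2H2BE at -0.0091, H2AFY at -0.12 and H2AFY2 at -0.089. With median scaling HIST1H2BD was at -0.0028 and H2AFY at -0.017, and with quantile normalization H2AFY was at -0.049 and H2AFY2 at -0.012. With 1 library left out, the change ran from -0.13 to 0.20 for HIST1H1C, -0.11 to 0.15 for HIST1H2BD, -0.0016 to 0.22 for HIST1H2BJ, -0.17 to 0.079 for HIST1H2BC, -0.054 to 0.090 for HIST2H2BE, -0.017 to 0.032 for H2AFY and -0.029 to 0.12 for H2AFY2. The cause was not tested. Fragment number limits most clustered genes.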
